A study of Arabidopsis thaliana and Marchantia polymorpha and Mesotaenium endlicherianum with 120 samples.

Results

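The comparison described here is the response of the unicellular green alga Ostreococcus tauri to warmth and brighter light raised together. Wild-type cells had been kept for 7 days in continuous white light, either at 24 °C with 100 µmol of photons per square metre and second (warm bright, 3 libraries) or at 16 °C with 10 of the same units (cool dim, 3 libraries). These 6 libraries were taken by their labels from the 12 of this alga, out of 120 libraries in the series, and the change was measured over the 7833 entries of its count table. The other 6 libraries raised a single input, warmth alone (24 °C with light 10, warm dim, 3 libraries) or light alone (16 °C with light 100, cool bright, 3 libraries). All groups were the same genotype and age, and the labels do not say whether the libraries of a group came from separate cultures, so that the p-values measure the spread between libraries, which may be technical. The design states that several plant species were grown in these combinations to see how light and temperature are integrated in the transcriptome.

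Ostreococcus tauri belongs to the prasinophytes and is among the smallest free-living eukaryotes known, with a compact nuclear genome and a single chloroplast and a single mitochondrion per cell. The plastid genome encodes core subunits of the photosystems and of the plastid ribosome, and the mitochondrial genome encodes core subunits of the respiratory chain and of its own ribosome. Chromosomes 2 and 19 of this species are known as outliers in base composition, and chromosome 19 is known for differing in size and expression between lines that resist viruses and lines that do not. In the table, 7661 entries were nuclear identifiers, 94 were plastid entries and 78 were mitochondrial entries. The nuclear identifiers were paired with a name in 2 cases, so that most nuclear changes below are given as counts and by position in the numbering, with no function attached.

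Raising both inputs changed most of the transcriptome. Of 7667 entries with enough counts to test, 5762 (75.2%) differed between warm bright and cool dim at an adjusted p below 0.05 in edgeR's quasi-likelihood test with Benjamini-Hochberg adjustment, and these are the entries called changed throughout. The response ran in both directions, with 2776 entries higher (36.2%) and 2986 lower (38.9%). Large changes were more often rises. A change of at least 2-fold was called for 1386 entries higher (18.1%) and 1117 lower (14.6%), one of at least 4-fold for 672 higher (8.76%) and 269 lower (3.51%), and one of at least 8-fold for 281 higher (3.67%) and 85 lower (1.11%). In 6036 of the 7667 tested entries the 3 warm bright libraries did not overlap the 3 cool dim libraries, and 5661 of these were also called. The median change over all tested entries was -0.04 on the log2 scale, and the median size of a change without regard to sign was 0.67.

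The libraries themselves stood far apart. Total counts ran from 18415316 in warm bright replicate 1 to 38801166 in cool dim replicate 1, and warm dim replicate 3, with 26513409, was the other shallow library. On the first principal component, which held 72.3% of the variance of log2 CPM (an entry's count relative to the scaled total of its library), the cool dim libraries lay at -50.7, -54.2 and -54.5 and the warm bright libraries at 51.6, 62.1 and 65.4. The cool bright libraries, from -24.5 to -16.7, and the warm dim libraries, from 8.79 to 22.7, lay between these ends. CPM values here are scaled by the trimmed mean of M-values (TMM). Warm dim replicate 3 also differed in profile from the other libraries of its group. Its median absolute difference in log2 CPM was 0.260 to replicate 1 and 0.217 to replicate 2, against 0.0892 between those 2. Between warm bright libraries this difference ran from 0.166 to 0.210.

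The balance between strongly and weakly expressed entries moved with the treatment. The 10 entries with the most counts in a library held 11.7, 11.8 and 11.2% of the counts in the cool dim libraries and 7.45, 7.48 and 7.59% in the warm bright ones. The shares did not overlap (exact permutation test over the 3 and 3 libraries, two-sided, p = 0.1, the smallest this design allows). In warm dim the mean share was 10.6% ± 0.565 (SD, n = 3) and in cool bright 11.5% ± 0.593 (SD, n = 3), so that the low share was seen when both inputs were raised. Of the 1000 entries with the highest mean CPM over all 12 libraries, 578 were higher in warm bright and 264 lower. Of the top 10 by the same mean, 1 was higher and 6 lower. Among 725 tested entries with a mean of 1 to 10 CPM, 172 were higher and 328 lower. Over all tested entries, 36.2% were higher and 38.9% lower. The mean that ranks entries includes the warm bright libraries, so a strong rise itself moves an entry up the ranking.

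**Figure D1:**
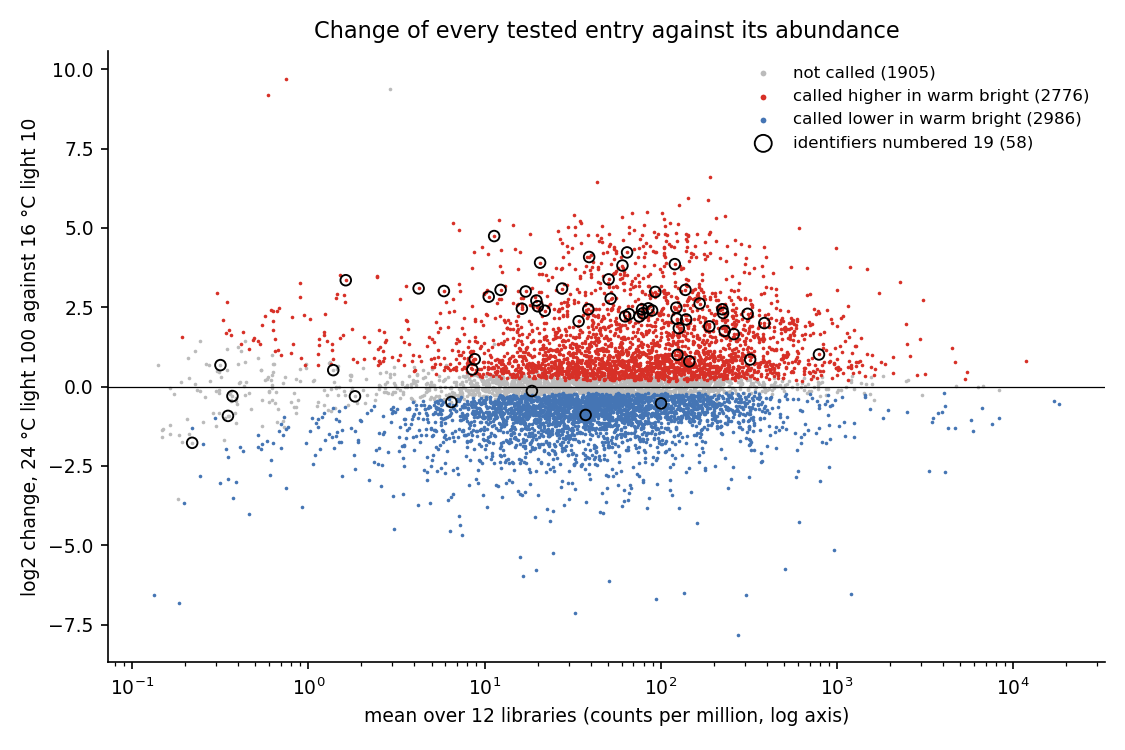
Each point is 1 of the 7667 tested entries, with its mean over the 12 libraries in TMM-scaled CPM on a log axis and the log2 change from 16 °C and light 10 to 24 °C and light 100 on the vertical axis; red and blue points were called higher (2776) and lower (2986), and black rings mark the 58 tested entries with identifiers numbered 19. The rings lie mostly well above 0, with a median of 2.32.

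The nuclear entry with the largest called rise among those averaging at least 5 CPM over the 6 libraries, without overlap between groups, was OT_ostta13g01100. Its level was 6.34, 5.41 and 6.06 CPM in cool dim and 465, 618 and 654 CPM in warm bright, a log2 change of 6.61 ± 0.247 (SE, edgeR, adjusted p = 6.75e-11). Either input alone moved it part of the way, with 54.7, 64.7 and 39.04 CPM in cool bright and 100, 114 and 155 CPM in warm dim. Each of the 4 groups occupied its own range, in the order cool dim, cool bright, warm dim, warm bright. OT_ostta05g02880 followed the same order at a lower level, with 1.82, 1.502 and 1.10 CPM in cool dim and 94.8, 128 and 167 CPM in warm bright. Its log2 change was 6.46 ± 0.363 (SE, edgeR, adjusted p = 1.79e-09). The sequence and product of these identifiers were not analysed here.

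The largest fall by the same rule was that of OT_ostta10g00930, and it did not follow such an order. It stood at 330, 384 and 357 CPM in cool dim and at 1.51, 2.00 and 1.20 CPM in warm bright, a log2 change of -7.82 ± 0.467 (SE, edgeR, adjusted p = 3.24e-09). Warmth alone raised it, with 937, 833 and 366 CPM in warm dim, whereas light alone lowered it to 25.8, 21.4 and 50.6 CPM in cool bright. All 3 warm dim libraries were thus above the median of the cool dim ones, and the warm bright libraries were the lowest of all. OT_ostta03g05360 fell with either input, from 97.4, 105 and 96.3 CPM in cool dim to 10.2, 7.62 and 12.3 CPM in cool bright and 22.0, 25.1 and 14.6 CPM in warm dim. With both inputs it stood at 0.754, 0.644 and 0.747 CPM, a log2 change of -7.13 ± 0.263 (SE, edgeR, adjusted p = 6.38e-11). Among all tested entries, 3 had no counts in any cool dim library and 2 had none in any warm bright library.

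The second question the design poses is how the combined change relates to the changes from each input alone. Measured from the same cool dim libraries, warmth at light 10 changed 5084 entries (66.3%) and light at 16 °C changed 2786 (36.3%). Measured to the same warm bright libraries, warmth at light 100 changed 5455 entries (71.1%) and light at 24 °C changed 4482 (58.5%). The median size of a change was 0.49 for warmth at light 10, 0.24 for light at 16 °C, 0.55 for warmth at light 100 and 0.41 for light at 24 °C on the log2 scale. These comparisons share libraries with each other and with the combined one, so their values are set side by side and not counted against each other. Of 7577 nuclear entries tested, 1550 (20.5%) had all 3 warm bright libraries above all 9 others and 1352 (17.8%) had them below all 9 others.

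The interaction tested whether the combined log2 change differed from the sum of the changes for warmth alone and light alone. It was called for 2337 entries (30.5%), of which 1295 (16.9%) ended higher than the sum and 1042 (13.6%) ended lower. Most departures were small, and 429 entries (5.60%) departed by at least 2-fold. The median departure without regard to sign was 0.33 on the log2 scale, against 0.67 for the combined change itself. OT_ostta10g00930 departed by -5.36 ± 0.543 (SE, edgeR, adjusted p = 3.08e-05), ending far below the sum of a rise with warmth and a fall with light. The departures of OT_ostta03g05360, at -1.55 ± 0.336 (SE, edgeR, adjusted p = 0.00424), and of OT_ostta13g01100, at -0.91 ± 0.280 (SE, edgeR, adjusted p = 0.0257), were smaller than their single-input changes. The adjusted p of the last of these rose to as much as 0.0631 when single libraries were left out.

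The change was not spread evenly over the genome as the identifiers number it. Nuclear identifiers carry a number from 1 to 20 after the species prefix, which by the naming convention of this genome is the chromosome, followed by a gene number that orders the entries along it. No annotation of this genome was used, and the groupings by number were made after the values had been seen, so they are descriptions without a test. For 18 of the 20 numbers the median combined change of the tested entries lay between -0.20 and 0.06, and the summed CPM in warm bright was 0.804 to 1.44 times that in cool dim. The 2 numbers outside this band of medians were 19 and 2. Scaled CPM do not sum to the same total in every library. The TMM factors that divide the library totals were 1.08, 1.08 and 1.11 in cool dim and 0.936, 0.885 and 0.879 in warm bright. Scaled CPM summed over all entries were thus higher in warm bright. A ratio of sums above 1 need not mean a larger share of the counts.

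**Figure D2:**
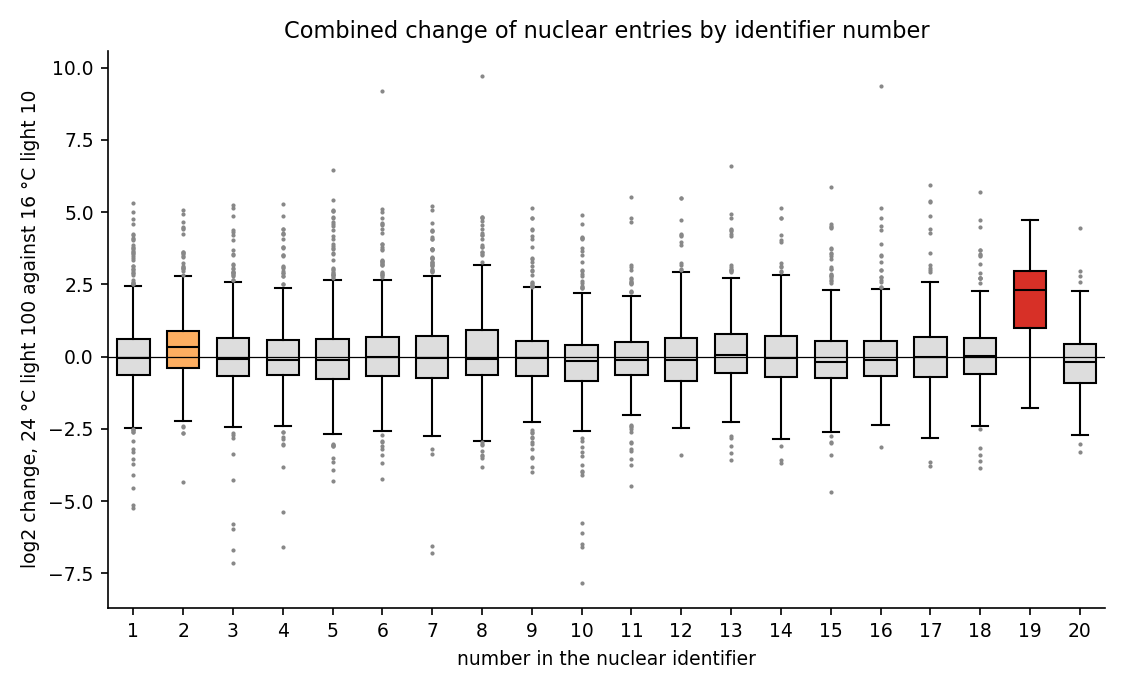
Boxes show the quartiles of the log2 change from cool dim to warm bright for the tested nuclear entries of each identifier number, with whiskers to 1.5 times the interquartile range and dots beyond. The box of number 19 (red, 58 entries) lies wholly above 0, with quartiles at 1.01 and 2.95, and that of number 2 (orange, 527 entries) is shifted upward with a median of 0.33.

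Entries numbered 19 rose almost as a block. Of 74 such entries 58 were tested, and the 16 others had at most 72 counts over all 12 libraries. Of the 58 tested, 48 were called higher (82.8%, against 36.2% of all tested entries) and 2 lower, and 44 rose by at least 2-fold while none fell that far. The median log2 change was 2.32, with a range from -1.77 to 4.75, against -0.04 over all tested entries. The longest run of neighbours all called higher in the table held 39 tested entries, from gene number 200 to gene number 570 of this set, with a median of 2.43.

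Summed over the 74 entries, the level was 3063, 3007 and 2850 CPM in cool dim and 9424, 11791 and 10609 CPM in warm bright. The means, 2973 ± 111 CPM (SD, n = 3) and 10608 ± 1184 CPM (SD, n = 3), stood in a ratio of 3.57. This ratio is in scaled CPM, whose sum over all entries was itself higher in warm bright. The cool bright libraries held 2584, 2313 and 2775 CPM, all below the lowest cool dim library. The warm dim libraries held 6153, 5900 and 5411 CPM, between the cool and the warm bright ones.

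The changes with light ran in opposite directions at the cool and at the warm temperature. Light at 16 °C raised none of the 58 entries and lowered 32, with a median change of -0.47, where 18.9% of all tested entries rose and 17.4% fell. Light at 24 °C raised 44 of them and lowered 2, with a median of 0.92, where 29.7% of all tested entries rose and 28.8% fell. Warmth raised 44 at light 10, with a median of 1.33 (32.9% of all tested entries rose), and 51 at light 100, with a median of 2.82 (35.1% of all tested entries rose). The interaction was called above the sum of the single changes for 45 of the 58 (16.9% of all tested entries) and below it for none, with a median departure of 1.39. In 44 of the 58 entries all 3 warm bright libraries lay above all 9 others (20.5% of all tested nuclear entries). Under each alternative run, the counts stayed between 47 and 49 for the combined rise and between 43 and 46 for the interaction.

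**Figure D3:**
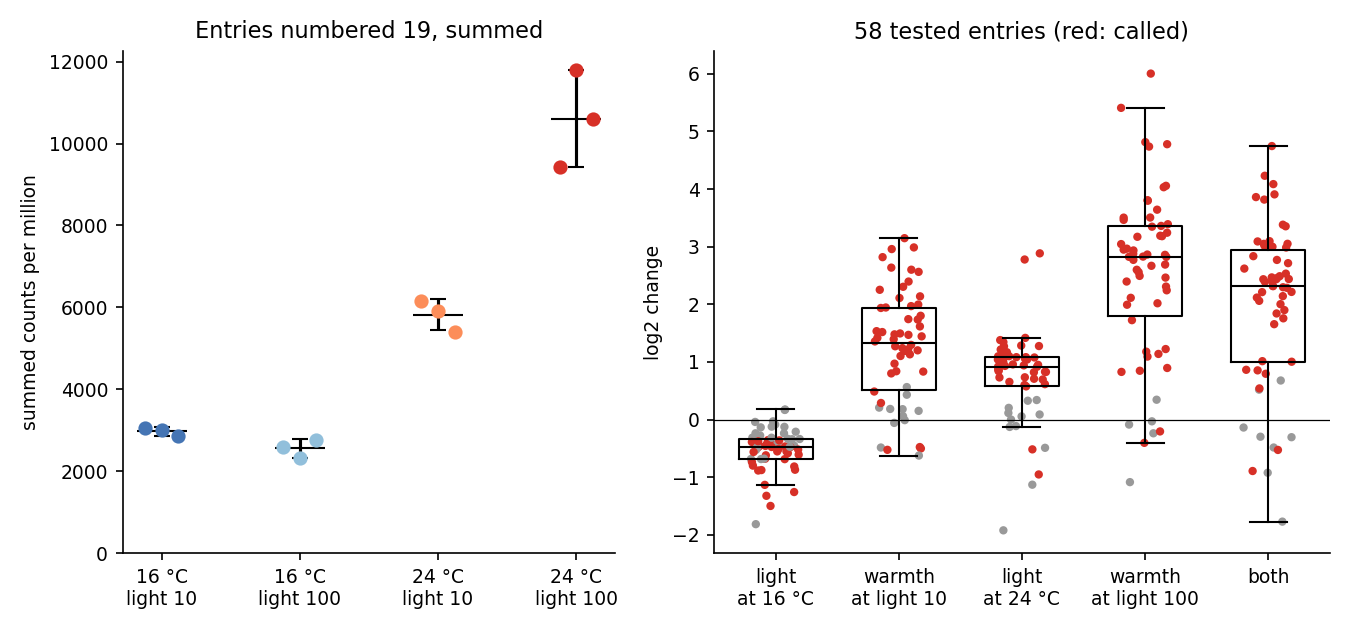
The left panel shows the CPM summed over the 74 entries numbered 19 in each library (points) with the mean and SD of each group (n = 3), and the right panel the log2 change of the 58 tested entries in 5 comparisons, with boxes at the quartiles and called entries in red. The warm bright libraries sit between 9424 and 11791 CPM, and the changes with light lie mostly below 0 at 16 °C and mostly above 0 at 24 °C.

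Entries numbered 2 were shifted upward by a smaller amount and over part of their range. Of 527 tested entries, 273 were higher (51.8%) and 153 lower (29.0%), with a median log2 change of 0.33. Over all tested entries, 36.2% were higher and 38.9% lower. The shift was larger among the first 250 tested entries, up to gene number 2790, where 159 were higher (63.6%) and 50 lower (20.0%) with a median of 0.55. They were also more abundant, with a median level of 151 CPM over the 12 libraries, against 47.9 CPM for all tested nuclear entries. Among all tested entries with a mean of 100 to 1000 CPM the median change was 0.32. The part of abundance in the shift was not tested. In the remaining 277 entries 114 were higher (41.2%) and 103 lower (37.2%), near the shares over all tested entries, with a median of 0.11. The interaction was called above the sum for 108 of the first 250 entries and below it for 6, and above it for 50 and below it for 28 of the remaining 277, where 16.9% of all tested entries were above and 13.6% below. The summed level of all entries numbered 2 was 78273, 77315 and 74634 CPM in cool dim and 100969, 111462 and 107986 CPM in warm bright, without overlap. The ratio of the means, 1.39, lay within the 0.804 to 1.44 of the 18 numbers other than 2 and 19. The sum therefore did not set number 2 apart.

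A block of neighbours that fell was found among entries numbered 10. When the tested nuclear entries were divided in order into 296 windows of 25, the medians of the windows had a 5th percentile of -0.53 and a 95th percentile of 0.45. The lowest median, -1.52, was that of the window from gene number 800 to gene number 1040 of number 10. In it 21 entries were lower and 1 was higher (38.9% and 36.2% of all tested entries). Within it, 17 consecutive tested entries from gene number 870 to gene number 1030 were all called lower, with log2 changes from -7.82 to -0.56 and a median of -3.75. OT_ostta10g00930 is 1 of these 17. The median change of the same 17 with light at 16 °C was -2.24, their median change with warmth at light 10 was 0.16, and their median departure from the sum was -1.22. The changes with warmth were mixed. Over the 25 entries of the window, warmth at light 10 raised 8 and lowered 12, with changes from -2.84 to 1.62. Of all tested nuclear entries it raised 33.0% and lowered 33.7%. The block was picked for its values and its medians are descriptions.

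**Figure D4:**
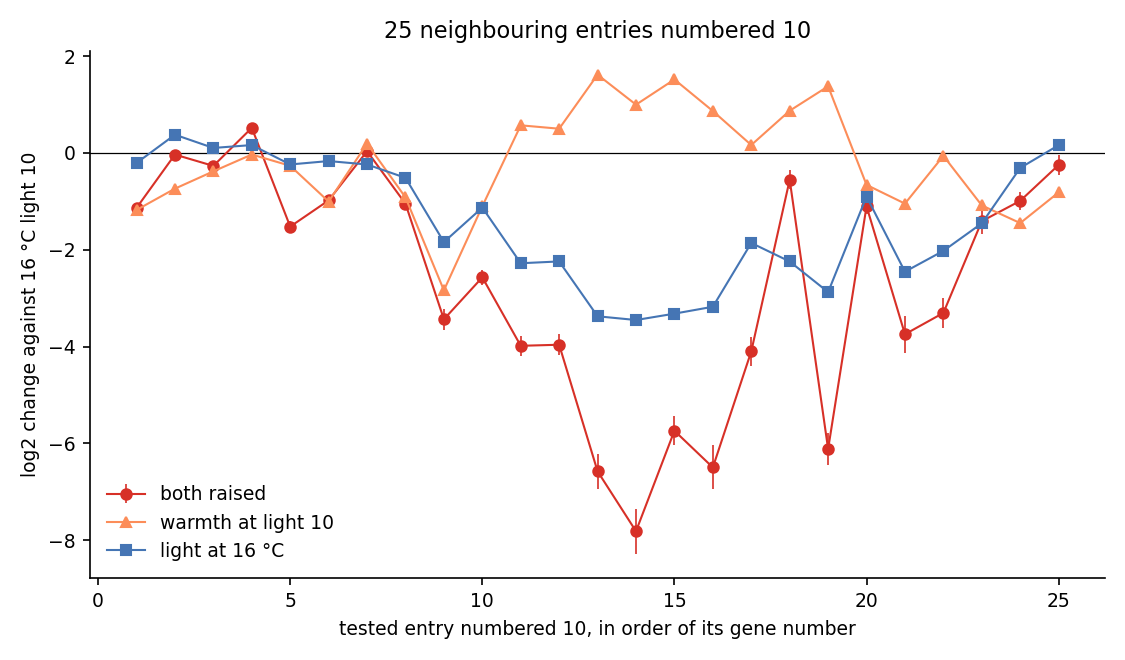
The 25 tested entries of the lowest window are placed in order of their gene number, with the log2 change against cool dim when both inputs were raised (red, bars are SE), with warmth at light 10 (orange) and with light at 16 °C (blue). In the middle of the window the red points fall to -7.82 while the orange points lie above 0.

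Of 43 mitochondrial protein entries, all of which were tested, 25 were called higher and none lower, where 36.2% of all tested entries were higher and 38.9% lower. Their median log2 change was 0.89, against -0.04 over all tested entries. Warmth at light 10 alone raised 18 of the 43 and lowered 6 (33.0% and 33.7% of all tested nuclear entries). Light at 16 °C alone raised 4 and lowered none (18.9% and 17.4% of all tested entries). The labels do not describe how RNA was selected for the libraries. Mitochondrial entries held 0.0763, 0.101 and 0.0873% of the counts in the cool dim libraries and 0.163, 0.0532 and 0.0481% in the warm bright ones. The means, 0.0881% ± 0.0122 and 0.0880% ± 0.0647 (SD, n = 3), were near-equal through warm bright replicate 1, without which both remaining libraries lay below all cool dim ones and the difference was -0.0374 percentage points. In bulk libraries fewer organelles per cell and less RNA per organelle cannot be told apart. Several organellar entries are listed as pairs with totals within 5% of each other. Reads of such pairs cannot be assigned to 1 copy, and such entries are given as a pair below. Numbers of organellar entries count both copies of a pair.

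Complex I, the NADH dehydrogenase that passes electrons into the respiratory chain, had 9 of its 11 entries higher (36.2% of all tested entries). The subunit nad7 stood at 0.886, 0.544 and 0.699 CPM in cool dim and at 2.44, 2.82 and 2.21 CPM in warm bright, a log2 change of 1.80 ± 0.31 (SE, edgeR, adjusted p = 0.00014). The proton-pumping membrane subunits nad5, at 1.42, and nad4, at 1.56, rose by similar amounts on the log2 scale. In none of these 3 subunits did the 2 groups overlap. With warmth at light 10 alone the changes were 1.95 for nad7, 1.05 for nad5 and 1.46 for nad4, all called. With light at 16 °C alone they were 0.71, 0.64 and 0.29 in the same order, and none was called. The membrane subunit nad3 had a change of 2.20 and departed from the sum of the single changes by -2.47 ± 0.737 (SE, edgeR, adjusted p = 0.0230), since it had risen by 2.52 with warmth alone and by 2.15 with light alone. Its counts were few, from 6 to 39 per library in the 6 libraries. For nad2, with a change of 0.89 (edgeR, adjusted p = 0.039), the call was lost without any 1 of the cool dim libraries and without warm bright replicate 1.

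Of 6 entries for complexes III and IV, 3 were higher (36.2% of all tested entries). These were the pair for Cox1 and the entry Cox3, which, like Cox2, encode core subunits of cytochrome c oxidase. The Cox1_2 copy stood at 2.18, 1.79 and 2.21 CPM in cool dim and at 14.6, 17.8 and 15.5 CPM in warm bright. Its log2 change was 2.95 ± 0.277 (SE, edgeR, adjusted p = 3.40e-07), and that of the Cox1_1 copy was 2.92. Warmth alone already gave 23.2, 14.8 and 12.1 CPM, which overlapped the warm bright libraries, and light alone gave 6.36, 3.16 and 5.40 CPM. The departure from the sum was -1.34 ± 0.369 (SE, edgeR, adjusted p = 0.0158) for Cox1_2 and -1.36 for Cox1_1. Cox3 showed the same order, from 1.03, 1.30 and 0.699 CPM in cool dim to 8.23, 6.27 and 4.58 CPM in warm dim and 4.76, 4.91 and 3.44 CPM in warm bright, with a departure of -1.97 ± 0.481 (SE, edgeR, adjusted p = 0.00818). The remaining members of this list, Cox2 and 2 entries named CytB, the apocytochrome of complex III, were not called, and the CytB entry with the smaller adjusted p had a log2 change of -0.34 ± 0.33 (SE).

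The mitochondrial ATP synthase had 1 of 7 entries higher (36.2% of all tested entries). This was Atp1, the alpha subunit of its catalytic head, with a log2 change of 1.62 ± 0.42 (SE, edgeR, adjusted p = 0.0032). Among 16 entries for mitochondrial ribosomal proteins and the translocase Ymf16, 11 were higher (36.2% of all tested entries). Rpl6, of the large ribosomal subunit, had a log2 change of 2.84, and Rps13, of the small subunit, had a change of 2.38, each in libraries with under 2 CPM. With warmth at light 10 alone the changes were 1.48 for Atp1, 2.51 for Rpl6 and 2.30 for Rps13, all called. With light at 16 °C alone they were 0.59, 0.93 and -0.13 in the same order, and none was called. The small-subunit protein Rps7 stood at 42.1, 53.1 and 40.2 CPM in cool dim and at 112, 59.2 and 68.7 CPM in warm bright, where replicate 1 was the highest. Its log2 change was 0.82 ± 0.27 (SE, edgeR, adjusted p = 0.014), and the call was lost without that replicate, at 0.50, and without cool dim replicate 3, at 0.74. Rps7 was called with neither input alone, at 0.11 for warmth at light 10 and 0.04 for light at 16 °C. None of 6 mitochondrial rRNA entries and none of 12 tested tRNA entries was called.

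Warm bright replicate 1 stood apart in several other mitochondrial entries. The complex I subunit nad1 stood at 183, 275 and 228 CPM in cool dim and at 601, 132 and 109 CPM in warm bright, and nad6 at 75.6, 102 and 73.6 CPM and at 228, 36.0 and 23.2 CPM. In both, replicate 1 was the highest of the 6 libraries and replicates 2 and 3 lay below all cool dim libraries. Neither was called over all libraries, with log2 changes of 0.29 for nad1 and 0.18 for nad6. Without that library nad6, Atp6 and a pair of rrs entries (Mr01 and Mr06) were called lower, with log2 changes of -1.50, -0.95, -1.25 and -1.23. The raw counts of nad1 were 10363 in this library and 4303 and 3348 in replicates 2 and 3. Those of nad6 were 3933, 1172 and 713 in the same order. Why this library, the shallowest of the 12, stood apart was not tested. Cox1_2 had a log2 change of 3.01 without it.

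**Figure D5:**
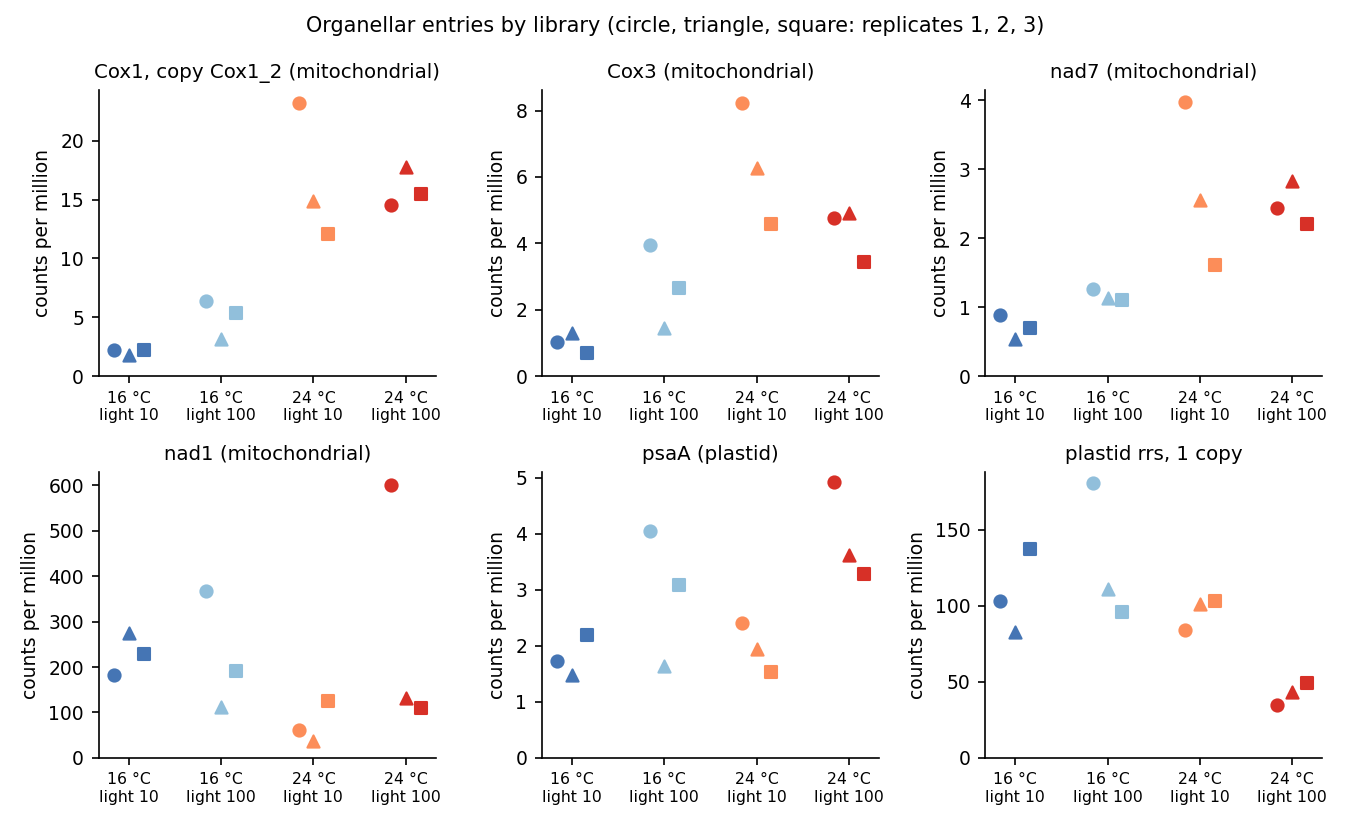
TMM-scaled CPM of 6 organellar entries in each of the 12 libraries, with replicates 1, 2 and 3 as circles, triangles and squares and the 4 groups by colour. Cox1, Cox3 and nad7 separate warm bright from cool dim, nad1 reaches 601 CPM in warm bright replicate 1 against 132 and 109 CPM in the other replicates, and plastid rrs is lowest in warm bright.

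Plastid transcripts were sparse, and 28 of 94 plastid entries could be tested. Of 22 tested protein entries 6 were higher and none lower, where 36.2% of all tested entries were higher and 38.9% lower. Among the 174 tested entries with a mean under 1 CPM over the 12 libraries, 36 were higher and 34 lower. The part of low abundance in the plastid share was not tested. The 6 included psaA, a core subunit of photosystem I, which stood at 1.72, 1.48 and 2.19 CPM in cool dim and at 4.93, 3.62 and 3.28 CPM in warm bright without overlap, a log2 change of 1.11 ± 0.31 (SE, edgeR, adjusted p = 0.0048). The photosystem II core proteins PsbB, a chlorophyll-binding antenna protein, and psbD, a reaction centre protein, had changes of 1.45 and 1.06. The small-subunit ribosomal proteins rps2 and Rps18 had changes of 2.25 and 0.88, and the open reading frame ORF537 one of 2.65. The call for Rps18 was lost when single libraries were left out, with adjusted p up to 0.106, and that for psbD without warm bright replicate 2, with an adjusted p of 0.0558. The pair for psbA, the reaction centre protein of photosystem II that is replaced most often in light, was not called, with log2 changes of 0.17 and 0.12, nor was rbcL, the large subunit of the carbon-fixing enzyme Rubisco, at -0.33 ± 0.29 (SE, edgeR, adjusted p = 0.307). No entry of the cytochrome b6f complex had enough counts to test. Light at 16 °C alone raised 5 of the 22 tested protein entries and lowered none (18.9% and 17.4% of all tested entries). Its changes were 1.09 for psbD and 0.97 for Rps18, both called. They were 0.70 for psaA, 1.03 for PsbB and 1.22 for rps2, none called. Warmth at light 10 alone raised 1 of the 22 and lowered 2 (33.0% and 33.7% of all tested nuclear entries).

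Of 6 plastid rRNA entries, 4 fell (38.9% of all tested entries), and these 4 are 2 pairs whose reads cannot be told apart. The pair for rrs, the rRNA of the small ribosomal subunit, stood in its Cr01 copy at 103, 82.9 and 138 CPM in cool dim and at 35.0, 43.2 and 49.0 CPM in warm bright, a log2 change of -1.35 ± 0.231 (SE, edgeR, adjusted p = 0.000121). It was not called with either input alone, with log2 changes of -0.17 for warmth at light 10 and 0.26 for light at 16 °C. The departure from the sum was -1.44 ± 0.321 (SE, edgeR, adjusted p = 0.00509) for Cr01 and -1.43 for the Cr06 copy. The pair for rrl, of the large subunit, had changes of -1.11 and -1.09, calls that were lost without cool dim replicate 3 (-0.59 and -0.57) and without warm bright replicate 2 (-0.98 and -0.97). The share of counts in plastid entries was 0.0474% ± 0.0186 (SD, n = 3) in cool dim and 0.0194% ± 0.00267 (SD, n = 3) in warm bright (exact permutation test, two-sided, p = 0.1, the smallest possible). The difference, -0.0280 percentage points, was -0.0175 without cool dim replicate 3, which held the largest share at 0.0684%. With rRNA entries left out, the shares were 0.00299% and 0.00372% (exact permutation test, p = 0.3).

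The nuclear entries with a name were psbL, which had at most 7 counts in a library and was not tested, and DBR1, whose product in other eukaryotes opens the lariats left by splicing. The counts of this psbL entry equalled those of the plastid psbL entry in every library. Its reads therefore cannot be assigned to the nuclear entry. DBR1 stood at 29.3, 34.8 and 35.1 CPM in cool dim and at 30.5, 28.0 and 23.6 CPM in warm bright, and the groups overlapped. Its log2 change was -0.28 ± 0.11 (SE, edgeR, adjusted p = 0.0351), and the call was lost when cool dim replicate 2 or 3 or warm bright replicate 2 or 3 was left out, with adjusted p up to 0.164.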

How the data were processed

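The deposited table held raw counts per entry, whole numbers that the authors derived from paired-end DNBseq reads, per the labels' protocols. The submitters' processing notes list FastQC (0.11.5) and HISAT2 (2.1.0). The counting program, build, annotation, strand setting and RNA extraction for this alga are not stated in the sources used. Every column was mapped by its title, none was unused, no row lacked an identifier, and 2 entries had no counts.

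All 12 libraries were fitted in 4 group means with edgeR 4.0.16 (limma 3.58.1, R 4.3.3): filterByExpr with a minimum count of 10, TMM scaling (factors 0.879 to 1.11), robust quasi-likelihood F tests with 8 residual degrees of freedom and Benjamini-Hochberg adjustment over 7667 entries. The common biological coefficient of variation was 0.122. A standard error is the size of the log2 change divided by the square root of its F statistic. The interaction was the light change at 24 °C minus that at 16 °C. Shares of counts were tested by exact permutation over libraries. The fit was checked on simulated data. Figures used matplotlib 3.10.9.

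The members and lists were chosen with earlier results of these data known. Named entries were the 10 highest and 10 lowest called changes among organellar and named entries averaging at least 5 CPM without overlap (2 and 2 for bare identifiers), up to 4 members of smallest adjusted p per organellar list, and the 4 smallest interaction p; psbL, DBR1, ORF537, nad1, nad6, Atp6, the mitochondrial rrs pair and all groupings by identifier number were added after their values were seen. Same-numbered warm bright and cool dim libraries deviated from their group means with correlations of -0.27, 0.28 and 0.24 across entries, so the numbers did not pair them. Between the groups at 24 °C the correlations were 0.23, 0.24 and 0.56, but warm dim replicate 1 correlated at 0.36 with warm bright replicate 2. Whether the numbers pair these libraries was thus left unsettled. The main fit used no pairs, and a replicate block was run as an alternative. The alternatives were RLE size factors, nuclear library sizes, DESeq2 1.42.0, no filter, the compared groups alone, a replicate block, leaving out each library, rRNA left out of the shares, and, added after seeing the data, all libraries thinned to 18415316 counts. No pair of libraries agreed within sampling noise. The result of 1 organellar entry is not reported here.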

Additional observations from a re-analysis of the deposited data

Results flagged for a closer look

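The change with light differed between 16 °C and 24 °C, which is the same test as the departure of the combined change from the sum of the single changes, for 2337 entries (edgeR's interaction term, adjusted p below 0.05). Named entries among them were as follows, each with its difference on the log2 scale. The pair for Cox1 differed by -1.34 and -1.36, Cox3 by -1.97 and nad3 by -2.47. The pair for plastid rrs differed by -1.44 and -1.43. OT_ostta10g00930 differed by -5.36, OT_ostta03g05360 by -1.55 and OT_ostta13g01100 by -0.91. When single libraries were left out, the adjusted interaction p rose above 0.05 for nad3 (without cool dim replicate 3, cool bright replicate 1 or warm dim replicate 1, up to 0.0596) and for OT_ostta13g01100 (up to 0.0631). No group was large enough to test single libraries as outliers.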

How the results depend on the processing

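The count of entries changed by both inputs was 5762, and ran from 5450 to 5728 when 1 library of the compared groups was left out; 93.6 to 96.1% of the calls over all libraries were then shared, with none of opposite sign. It was 5747 with RLE size factors, 5777 with nuclear library sizes, 5865 with DESeq2, 5787 without the filter, 5801 with the compared groups alone, 5827 with a replicate block and 5689 with all libraries thinned to 1 depth. The block changed no other count by over 1.5 times and gave 4560 against 4482 entries for light at 24 °C and 2430 against 2337 for the interaction. The 4 organellar entries called lower became 2 without cool dim replicate 3 and without warm bright replicate 2, and 8 without warm bright replicate 1. The difference in plastid share, -0.0280 percentage points, became 0.000731 with rRNA entries left out of the total; plastid rRNA held most plastid counts. The difference in mitochondrial share, -9.93e-05 percentage points, ran from -0.0374 to 0.0198 when 1 library was left out. Single calls that were lost under at least 1 alternative were nad2, Rps7, Rps18, psbD, the rrl pair and DBR1. Plastid rps12, not called at an adjusted p of 0.054, was called with RLE factors, DESeq2, the compared groups alone and without cool dim replicate 3. Low plastid counts limit what could be tested there (28 of 94 entries).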
